A study of Mus musculus with 6 samples.

Results

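Fc receptors bind the constant part of antibodies, and the ITAM (immunoreceptor tyrosine-based activation motif) is the short tail sequence through which many leukocyte receptors signal. The 9 genes described here are Tyrobp, Fcer1g, Trem2, Fcgr1, Fcgr2b, Fcgr3, Syk, Plcg2 and Vav1, which were 9 of the 17512 genes in the count table. They were taken by their gene symbols and were chosen with the difference between the genotypes in these libraries already known. Their levels, fold changes and counts are therefore a description, and no p-value is given for any of them. All 9 passed the filter on low counts that left 14773 genes for testing.

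RNA was sequenced from primary mouse embryonic fibroblasts (pMEFs), the connective-tissue cells that grow out of dissociated embryos, on a C57bl6 background. The HAT1 WT group was pMEF lines 36, 47 and 78 and the HAT1 KO group was pMEF lines 33, 41 and 72, with 1 library for each line. Both groups were grown alike in DMEM with 10% FBS and antibiotics, without a treatment, and the study prepared its MEFs from whole embryos after removing the internal organs. The labels do not say that each line came from a separate embryo, so p-values measure the spread between these libraries. The HAT1 enzyme adds acetyl groups to histone H4 before it enters chromatin, and the knockout is not restricted to a cell type in the labels.

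Activating Fc receptors and TREM receptors have short tails of their own and signal through small partner chains that carry ITAMs. When a receptor is clustered, a Src family kinase phosphorylates a pair of tyrosines in the ITAM, and the kinase SYK docks there and passes the signal to adaptors, phospholipases and exchange factors. Inhibitory receptors carry a related motif, the ITIM, which recruits phosphatases that oppose the cascade. The system is best known in macrophages, mast cells and other cells of the blood lineage, where it drives phagocytosis and cytokine release, and it is not characteristic of fibroblasts.

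The genes lay on 6 chromosomes of the mouse genome (GRCm38, GENCODE M21 annotation). All 9 were annotated as protein coding, and values are for whole genes, with all their exons. Fcgr2b at chr1:170958617-170976547, Fcgr3 at chr1:171051174-171064935 and Fcer1g at chr1:171229572-171234365 were on the minus strand in the same region of chromosome 1. Fcgr1 was on the minus strand at chr3:96282909-96293969. Trem2 at chr17:48346401-48354147 and Vav1 at chr17:57279100-57328031 were both on the plus strand of chromosome 17. The remaining genes on the plus strand were Tyrobp at chr7:30413760-30417585, Plcg2 at chr8:117498291-117635142 and Syk at chr13:52583173-52648792.

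Promoters are shown because the 9 genes were lower together and several belong to the blood lineage, where the transcription factor PU.1 (gene Spi1) is active. RefSeq promoters of 300 bases (GRCm38.p6, 250 before to 50 after the start site) were found for 8 of the 9 genes, with 10 entries in all, and Tyrobp was not among them. The core of the PU.1 recognition sequence, GAGGAA on either strand, was present in 6 of the 10 entries, beside 28.3% of all 32851 promoters in the table. Both Fcgr3 entries are among the 6, though they overlap and hold the same core. The Syk entry for the other start site lacked it. The TATA box TATAAA was in 0 of the 10, beside 13.6% of all promoters, and the GC box GGGCGG was in 2 (Plcg2 and Vav1), beside 35.7%. No match of one motif overlapped a match of another in these windows. The windows with a PU.1 core are printed 5′ to 3′ along the gene, with the core in capitals (TTCCTC is the same core on the opposite strand), and a match describes the letters and not a bound site.
Fcgr1: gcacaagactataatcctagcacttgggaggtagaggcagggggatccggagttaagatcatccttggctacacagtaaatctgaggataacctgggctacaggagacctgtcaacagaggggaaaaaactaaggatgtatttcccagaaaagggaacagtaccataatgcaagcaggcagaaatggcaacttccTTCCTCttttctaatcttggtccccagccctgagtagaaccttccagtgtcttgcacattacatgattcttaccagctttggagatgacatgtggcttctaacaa
Fcgr3: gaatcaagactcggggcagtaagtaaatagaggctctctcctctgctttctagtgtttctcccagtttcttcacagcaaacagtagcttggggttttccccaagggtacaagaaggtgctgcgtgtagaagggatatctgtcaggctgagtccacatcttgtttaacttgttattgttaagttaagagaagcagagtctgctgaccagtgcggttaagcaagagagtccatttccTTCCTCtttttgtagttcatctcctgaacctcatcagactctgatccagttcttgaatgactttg
Syk: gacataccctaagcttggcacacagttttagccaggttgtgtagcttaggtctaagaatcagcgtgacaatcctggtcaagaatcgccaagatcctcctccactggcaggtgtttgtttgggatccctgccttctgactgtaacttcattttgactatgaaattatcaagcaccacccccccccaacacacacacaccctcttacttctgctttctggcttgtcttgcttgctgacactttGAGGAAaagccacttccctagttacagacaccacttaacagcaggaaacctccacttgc
Trem2: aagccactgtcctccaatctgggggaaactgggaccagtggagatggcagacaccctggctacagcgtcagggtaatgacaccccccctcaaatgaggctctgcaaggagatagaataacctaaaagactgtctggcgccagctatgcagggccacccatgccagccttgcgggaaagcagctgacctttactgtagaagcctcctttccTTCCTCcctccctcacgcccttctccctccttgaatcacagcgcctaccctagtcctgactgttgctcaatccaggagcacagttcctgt
Vav1: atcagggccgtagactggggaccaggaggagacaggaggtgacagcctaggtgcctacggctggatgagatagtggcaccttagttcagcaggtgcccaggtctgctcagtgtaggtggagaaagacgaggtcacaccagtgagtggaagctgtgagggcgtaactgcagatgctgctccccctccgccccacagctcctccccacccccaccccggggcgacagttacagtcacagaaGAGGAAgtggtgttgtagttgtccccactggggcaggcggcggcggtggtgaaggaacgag

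In GRCm38 these windows were chr3:96293920-96294219 (minus strand) for Fcgr1, chr1:171059345-171059644 (minus strand) for Fcgr3, chr13:52596632-52596931 (plus strand) for the second start site of Syk, chr17:48346151-48346450 (plus strand) for Trem2 and chr17:57278850-57279149 (plus strand) for Vav1. The core began 55 bases before the start site in Fcgr1, 15 in Fcgr3, 9 in Syk, 40 in Trem2 and 11 in Vav1. A further Fcgr3 entry covers nearly the same bases and holds the same core. Spi1 itself, the gene for PU.1, was at 56.2, 59.7 and 58.9 CPM (read counts scaled to a common library size) in WT lines 36, 47 and 78 and at 36.3, 31.9 and 37.5 CPM in KO lines 33, 41 and 72, a log2 fold change of -0.73 (SE 0.08, adjusted p = 0.0357 in edgeR, from 3.95e-10 to 0.529 over the alternatives). It missed the adjusted threshold with the lane in the model and without any 1 line other than KO line 72. Whether PU.1 bears on the other differences was not tested.

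Levels are given as CPM with library sizes scaled by the TMM method. Total counts lay between 67720628 and 98786746 per library, so counting error was small for the 9 genes. Hat1, the targeted gene, was at 20.2 ± 2.80 CPM (SD, n = 3) in HAT1 WT and 10.2 ± 0.146 CPM in HAT1 KO, and all 3 KO lines were below all WT lines. Its log2 fold change was -0.99 (SE 0.12, edgeR adjusted p = 0.0376, range 4.67e-09 to 0.529 over the alternatives), it passed the threshold in none of the fits without 1 line nor with the lane in the model, and the exact permutation p was 0.1, the smallest for 3 against 3. The libraries were also unbalanced in ways that genotype does not explain. Summed Y-linked counts were 13788 and 12841 in WT lines 36 and 47 but 231 in WT line 78 and at most 8 in the KO lines. Counts of the X-linked gene Xist were 94 and 1179 in WT lines 36 and 47 but 29520 in WT line 78. In the KO lines they were 11233 to 13722, and the labels give no sex. Lane 8 held WT line 36, lane 6 held WT line 47 with KO lines 33 and 72, and lane 7 held WT line 78 with KO line 41.

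All 9 genes had lower levels in HAT1 KO than in HAT1 WT, by log2 fold changes from -1.20 (Fcgr2b) to -0.44 (Plcg2) and a median of -0.92, beside a median of 0.0085 over all genes tested. By a Benjamini-Hochberg adjusted p under 0.05 in the edgeR quasi-likelihood test, 3 of the 9 (Tyrobp, Fcer1g and Vav1) were lower, beside 0.528% of all genes tested. By the thresholds of 1.5-fold and an unadjusted p under 0.05, 8 were lower (all but Plcg2), beside 4.62% of all genes. In 8 of the 9 every KO line was below every WT line, with Trem2 the exception, beside 12.4% of all genes. Because the genes were chosen on this contrast, nothing is read from these counts. The adjusted count was 0 of 9 without WT line 36, WT line 47, WT line 78, KO line 33 or KO line 41. It was 2 without KO line 72 (Tyrobp and Vav1) and 0 with the lane in the model. It was 9 in the DESeq2 Wald test (beside 4.86% of all genes with an adjusted p there) and 6 with limma voom (beside 1.78%). For the fits without 1 line or with the lane, the share of all genes was not computed. A loss over all genes and a loss particular to the 9 are therefore not told apart.

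**Figure D1:**
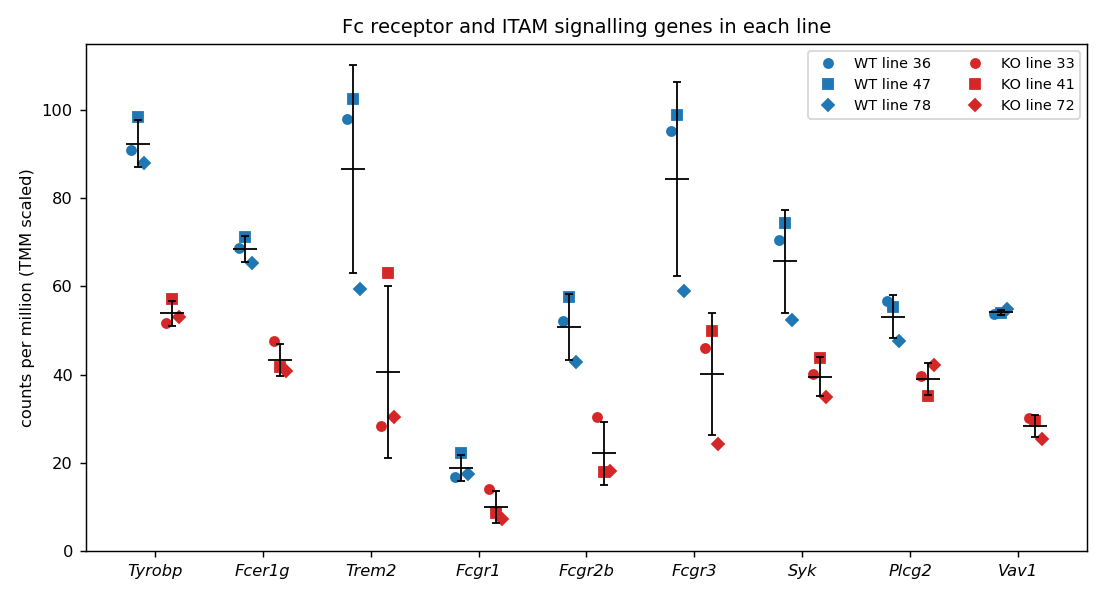
Each point is the level of 1 gene in 1 line, in CPM with TMM scaling (y axis, linear), with HAT1 WT in blue and HAT1 KO in red. Horizontal marks and error bars are the mean and SD of 3 lines, and marker shapes do not pair lines. The groups are apart for all genes but Trem2, where KO line 41 at 63.0 CPM lies above WT line 78 at 59.5 CPM.

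The signalling chains had even levels within each genotype. Tyrobp, which encodes the ITAM chain DAP12 that partners TREM and other receptors, was at 90.9, 98.3 and 87.9 CPM in WT lines 36, 47 and 78. In KO lines 33, 41 and 72 it was at 51.7, 57.1 and 53.0 CPM. The groups were well apart, with the highest KO line at 65.0% of the lowest WT line, and the highest line exceeded the lowest by 1.12 times within HAT1 WT and by 1.10 times within HAT1 KO. The group means (± SD, n = 3, as for all means given here) were 92.4 ± 5.36 and 53.9 ± 2.84 CPM, with a log2 fold change of -0.78 (SE 0.07).

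Fcer1g encodes the common gamma chain, the ITAM chain that activating Fc receptors and several lectin receptors use. It was at 68.8, 71.2 and 65.3 CPM in WT lines 36, 47 and 78, and at 47.5, 41.8 and 40.9 CPM in KO lines 33, 41 and 72. All KO lines were below all WT lines. The means were 68.5 ± 2.98 and 43.4 ± 3.62 CPM, or 63.4% of WT in the KO lines, with a log2 fold change of -0.66 (SE 0.08). The ratio of Fcer1g to Tyrobp was nearly constant among WT lines (0.725 to 0.757) and ran from 0.732 to 0.920 among KO lines, so the groups overlapped.

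The receptors varied more than the chains they signal through. Trem2, a receptor for lipids and lipoproteins that signals through DAP12, was at 97.9, 103 and 59.5 CPM in WT lines 36, 47 and 78. In KO lines 33, 41 and 72 it was at 28.3, 63.0 and 30.4 CPM. WT line 78 and KO line 41 stood away from the other lines of their genotype and crossed, so the groups overlapped. The means were 86.7 ± 23.7 and 40.5 ± 19.5 CPM, and the log2 fold change of -1.10 had the largest SE of the 9 genes, 0.37. The ratio of Trem2 to its partner Tyrobp was 1.08, 1.04 and 0.676 in WT lines 36, 47 and 78, beside 0.546, 1.10 and 0.574 in KO lines 33, 41 and 72. Lines of each genotype were thus found at both a high and a low ratio. Without KO line 41 the log2 fold change of Trem2 was -1.56 and without KO line 33 it was -0.89.

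Fcgr1 encodes the high-affinity receptor for IgG. It was the lowest of the 9 in CPM, at 16.8, 22.2 and 17.4 CPM in WT lines 36, 47 and 78 and at 14.0, 8.60 and 7.19 CPM in KO lines 33, 41 and 72. KO line 33 was closest to the WT lines without reaching them. The means were 18.8 ± 2.97 and 9.92 ± 3.58 CPM, with a log2 fold change of -0.92 (SE 0.27) that ran from -1.25 to -0.72 over fits without 1 line.

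Fcgr3 encodes a low-affinity activating receptor for IgG that needs the gamma chain to signal. Its levels were 95.3, 98.9 and 59.0 CPM in WT lines 36, 47 and 78 and 46.0, 49.9 and 24.2 CPM in KO lines 33, 41 and 72. As for Trem2, WT line 78 was the lowest WT line, but it stayed above all KO lines, of which line 72 was the lowest. The means were 84.4 ± 22.0 and 40.0 ± 13.8 CPM, a log2 fold change of -1.08 (SE 0.32).

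Fcgr2b encodes the inhibitory IgG receptor, which carries an ITIM in its own tail. It was at 52.2, 57.5 and 42.8 CPM in WT lines 36, 47 and 78 and at 30.3, 17.9 and 18.0 CPM in KO lines 33, 41 and 72. KO lines 41 and 72 were nearly equal and KO line 33 was higher, though below all WT lines. The means were 50.8 ± 7.48 and 22.1 ± 7.13 CPM, which is 43.5% of WT and the lowest share of the 9, with a log2 fold change of -1.20 (SE 0.24).

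The level of the inhibitory receptor relative to the activating ones overlapped between the genotypes. The ratio of Fcgr2b to Fcgr3 was 0.548, 0.582 and 0.724 among WT lines and 0.660, 0.359 and 0.745 among KO lines, with overlap. The ratio of Fcgr2b to Fcgr1 was 2.72 ± 0.347 in HAT1 WT and 2.25 ± 0.224 in HAT1 KO and overlapped as well. Fcgr2b and Fcgr3 are related genes, and 10.2% of the 50-base stretches of Fcgr3 transcripts also occur in Fcgr2b transcripts, while 10.7% of those of Fcgr2b occur in another gene. Reads from these stretches could be counted for either gene, and 155 exon bases of Fcgr2b also overlap the antisense gene Gm38204, so both values are uncertain to that extent. The transcripts of the other 7 genes shared no 50-base stretch with another gene.

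Downstream of the chains, Syk encodes the kinase that docks on phosphorylated ITAMs. It was at 70.4, 74.3 and 52.4 CPM in WT lines 36, 47 and 78 and at 40.1, 43.7 and 34.8 CPM in KO lines 33, 41 and 72. WT line 78 was again the lowest WT line and was above all KO lines. The means were 65.7 ± 11.7 and 39.5 ± 4.46 CPM, with a log2 fold change of -0.73 (SE 0.15).

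Vav1 encodes an exchange factor that activates Rac GTPases. Its level was the same to within 1.02 times across the WT lines, at 53.7, 54.0 and 54.8 CPM in lines 36, 47 and 78. In KO lines 33, 41 and 72 it was at 30.2, 29.4 and 25.4 CPM, and the groups were far apart. The means were 54.2 ± 0.569 and 28.3 ± 2.56 CPM, a log2 fold change of -0.93 (SE 0.08), which ran from -0.98 to -0.85 over all the alternatives.

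Plcg2 encodes phospholipase C gamma 2, which splits a membrane lipid into the messengers that release calcium and activate protein kinase C. It had the smallest difference of the 9. Its levels were 56.7, 55.2 and 47.6 CPM in WT lines 36, 47 and 78 and 39.8, 35.2 and 42.2 CPM in KO lines 33, 41 and 72, without overlap. Unlike most of the 9, it was highest in KO line 72 among the KO lines. The means were 53.2 ± 4.87 and 39.1 ± 3.58 CPM, which is 73.5% of WT, with a log2 fold change of -0.44 (SE 0.10).

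The order of the lines recurred over most of the 9 genes in HAT1 WT and was more mixed in HAT1 KO. WT line 47 was the highest WT line for 7 of the 9 and WT line 78 the lowest for 7. KO line 72 was the lowest KO line for 5 and the highest for 1, and KO lines 33 and 41 were each the highest for 4 and the lowest for 2. Summed over the 9 genes, levels were 603, 634 and 487 CPM in WT lines 36, 47 and 78 and 328, 347 and 276 CPM in KO lines 33, 41 and 72. No KO line reached the lowest WT line in this sum.

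Levels of different genes can be compared only per length, so CPM were also divided by the exon length of the protein-coding transcripts (in kilobases, giving RPKM). In HAT1 WT the order was Tyrobp (155 ± 8.98 RPKM), Fcer1g (91.5 ± 3.98), Trem2 (75.8 ± 20.7), Fcgr3 (51.8 ± 13.5), Vav1 (18.3 ± 0.187), Fcgr2b (13.3 ± 1.96), Plcg2 (12.4 ± 1.13), Syk (10.9 ± 1.94) and Fcgr1 (7.25 ± 1.15). The single lines overlapped between Fcer1g and Trem2, between Trem2 and Fcgr3, between Fcgr2b and Plcg2 and between Plcg2 and Syk, so these neighbours were not separated, whereas the other steps were. By these lengths both ITAM chains and the receptors Trem2 and Fcgr3 had higher levels than the downstream genes Syk, Plcg2 and Vav1. In HAT1 KO the first 5 places were the same, with Tyrobp at 90.3 ± 4.75 RPKM and Vav1 at 9.57 ± 0.866 RPKM, and Fcgr2b was in place 8 at 5.80 ± 1.87 RPKM, where its lines overlapped those of Syk (6.56 ± 0.740). The order depends on the transcripts counted: with all annotated transcripts the exon length of Trem2 rose from 1143 to 4946 bases and its level in HAT1 WT was 17.5 ± 4.79 RPKM, below Fcgr3 at 48.6 ± 12.7 RPKM and overlapping Vav1 and Plcg2, and in HAT1 KO it was 8.20 ± 3.94 RPKM, with Plcg2 at 9.09 ± 0.832 RPKM.

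The remaining genes of the pathway were taken from 6 lists of 92 genes by their known roles, and 81 of them were analysed, of which 72 passed the filter on low counts. At an adjusted p under 0.05 over all genes in edgeR, 3 fell and 0 rose, beside 0.528% and 0% of all genes. In the same 72 genes 38 were lower and 0 higher at an unadjusted p under 0.05, where 8.77% of all genes were lower. At an adjusted p under 0.05, 29 were lower in DESeq2 and 14 in limma voom, beside 4.86% and 1.78% of all genes, while 0 were higher in either. Over all genes the share higher at the adjusted threshold in edgeR was 0%, with 869 genes higher at an unadjusted p under 0.05, 226 in DESeq2 and 4 in limma voom. At 1.5-fold and an unadjusted p under 0.05, 27 were lower and 0 higher, beside 4.62% and 1.5% of all genes, and a single gene was higher at these thresholds without KO line 41 and without WT line 78. All KO lines were below all WT lines for 39 genes and above them for 0, beside 12.4% and 9.59% of all genes. The median log2 fold change of the 72 was -0.46.

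The 3 genes that fell were Clec4d, Inpp5d and Ptpn6. Clec4d, a lectin receptor that uses the gamma chain, was at 36.8, 41.3 and 46.4 CPM in WT lines 36, 47 and 78 and at 14.3, 19.3 and 20.7 CPM in KO lines 33, 41 and 72, a log2 fold change of -1.20 (SE 0.16, edgeR adjusted p = 0.0496). Inpp5d encodes SHIP1, the inositol phosphatase recruited by FCGR2B, and had a log2 fold change of -0.88 (SE 0.11, edgeR adjusted p = 0.0472), from 125 to 68.2 CPM. Ptpn6 encodes SHP-1, the tyrosine phosphatase recruited by ITIMs, and had a log2 fold change of -0.67 (SE 0.08, edgeR adjusted p = 0.0357), from 41.8 to 26.2 CPM. In each of these genes all 3 KO lines were below all 3 WT lines. The count of 3 was 0 without WT line 36, 47 or 78 or KO line 33 or 41, and 0 with the lane in the model, where the adjusted p of the 3 genes was 0.529 to 0.569. In the DESeq2 Wald test, the lowest of the alternatives, it was 2.99e-09 to 3.58e-08. The share of all genes called without 1 line or with the lane was not computed. Part of the exons of Ptpn6 overlaps the gene Gm20531, with 5.31% of its 50-base stretches shared.

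Among the other Fc receptors and antibody-binding proteins, 7 of 14 were tested and the median log2 fold change was -0.40. None passed the adjusted threshold in edgeR, and 5 were lower at an unadjusted p under 0.05, beside 8.77% of all genes. At the adjusted threshold 1 was lower in DESeq2 and 1 in limma voom, beside 4.86% and 1.78% of all genes. Fcrls, an Fc receptor-like gene of macrophages and microglia, was at 312, 350 and 289 CPM in WT lines 36, 47 and 78 and at 197, 185 and 56.6 CPM in KO lines 33, 41 and 72 (log2 fold change -1.12, SE 0.44, edgeR adjusted p = 0.326). KO line 72 was far below the other KO lines. Fcrl1, an Fc receptor-like gene best known from B cells, was low throughout, at 1.26 CPM in HAT1 WT and 0.446 CPM in HAT1 KO (log2 fold change -1.50, SE 0.23, edgeR adjusted p = 0.0642). Ms4a2, the beta chain of the mast cell IgE receptor, had 2 to 4 counts in the WT lines and 0 to 2 in the KO lines and was too low to test.

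The list of other ITAM-coupled receptors and ITAM chains had 13 of 23 genes tested, with Clec4d the only one past the adjusted threshold in edgeR and a median log2 fold change of -0.65. At an unadjusted p under 0.05, 4 were lower and 0 higher, where 8.77% of all genes were lower. At the adjusted threshold 4 were lower in DESeq2 and 3 in limma voom, beside 4.86% and 1.78% of all genes. The groups overlapped for 8 of the 13. Trem1 (0.70, SE 0.38) and Clec5a (0.06, SE 0.26) were the 2 with a positive log2 fold change. After Clec4d, the receptors that came next by the rule for named genes were Cd300lb (-0.65, SE 0.10, edgeR adjusted p = 0.0605), which partners DAP12, Cd300c2, another CD300 receptor, with means of 28.7 and 14.3 CPM (adjusted p = 0.0767), and Clec7a (-0.95, SE 0.21, adjusted p = 0.139), the beta-glucan receptor with an ITAM-like tail. Cd300c2 shares 8% of its 50-base stretches with Cd300a. The ITAM chains of lymphocyte receptors were near 0 in both genotypes. Cd79a, of the B cell receptor, had 0, 10 and 9 counts in WT lines 36, 47 and 78 and 4, 5 and 11 in KO lines 33, 41 and 72. Cd247, of the T cell receptor, had 0, 15 and 6 counts in the same order among WT lines and 3, 4 and 5 among KO lines.

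Downstream of SYK, 21 of 23 adaptors and enzymes were tested. None passed the adjusted threshold in edgeR, 15 were lower and 0 higher at an unadjusted p under 0.05 (8.77% of all genes were lower), and 11 were lower in DESeq2 (4.86%) and 5 in limma voom (1.78%). In 16 all KO lines were below all WT lines, beside 12.4% of all genes. Blnk, the adaptor that joins SYK to phospholipase C gamma, had a log2 fold change of -0.98 (SE 0.15, edgeR adjusted p = 0.0605). Pik3ap1, an adaptor of phosphoinositide 3-kinase, was at -0.98 (SE 0.15, adjusted p = 0.0642), Pik3cg, a catalytic subunit of that kinase, at -0.78 (SE 0.12, adjusted p = 0.0665) and Sh3bp2, an adaptor that binds SYK and VAV proteins, at -0.60 (SE 0.10, adjusted p = 0.0679).

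The kinases that phosphorylate ITAMs showed no common direction. Over the 7 Src family kinases tested the median log2 fold change was 0.017 and 0 passed the adjusted threshold in edgeR. At an unadjusted p under 0.05, 2 were lower and 0 higher, where 8.77% of all genes were lower. At the adjusted threshold 2 were lower in DESeq2 and 1 in limma voom, beside 4.86% and 1.78% of all genes.

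On the inhibitory side, 13 of 13 ITIM receptors and related genes were tested, with a median log2 fold change of -0.66. None passed the adjusted threshold in edgeR, and 9 were lower at an unadjusted p under 0.05, beside 8.77% of all genes. At the adjusted threshold 8 were lower in DESeq2 and 2 in limma voom, beside 4.86% and 1.78% of all genes. Sirpa, the receptor for CD47, was the most abundant, at 648, 682 and 587 CPM in WT lines 36, 47 and 78 and 325, 418 and 271 CPM in KO lines 33, 41 and 72 (log2 fold change -0.92, SE 0.17, edgeR adjusted p = 0.0904). Cd22, a sialic acid-binding receptor, was at 2.31 and 0.711 CPM (-1.70, SE 0.32, edgeR adjusted p = 0.0989), with 8.04% of its 50-base stretches shared with other genes, chiefly the antisense gene Gm29439. Cd200r1, an inhibitory receptor that works without an ITIM, was at -1.06 (SE 0.22) and Pirb, a receptor for MHC class I, at -0.85 (SE 0.18), though 37.3% of the 50-base stretches of Pirb occur in related genes. The 11 phosphatases and other intracellular inhibitors had a median log2 fold change of -0.14, with Inpp5d and Ptpn6 the ones past the adjusted threshold.

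**Figure D2:**
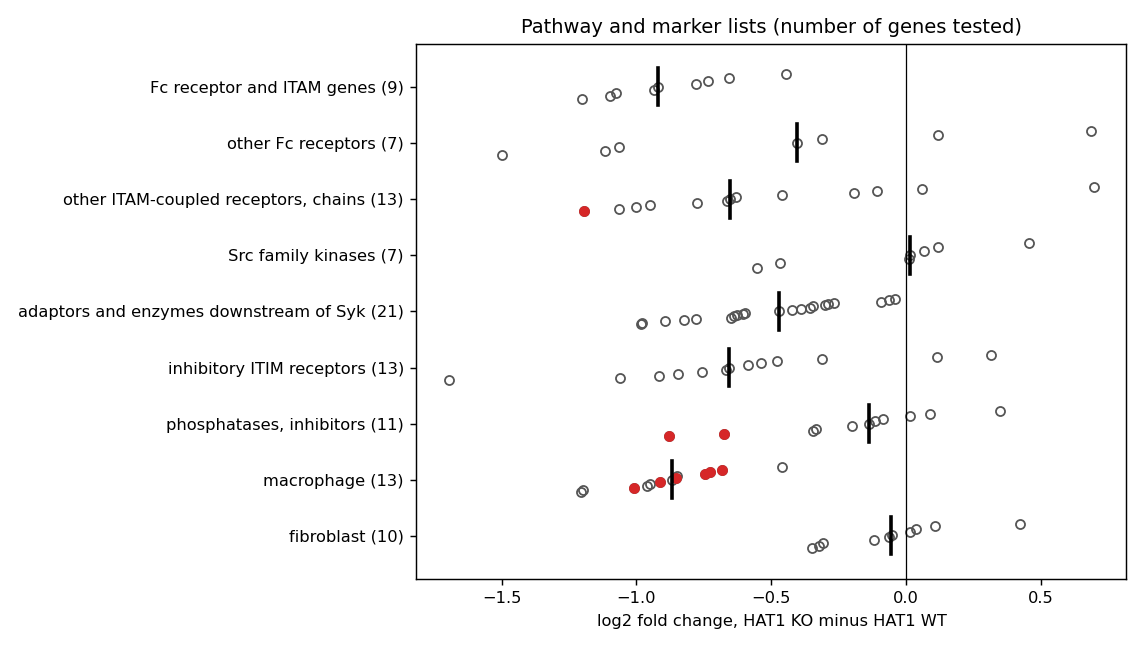
Each circle is the log2 fold change of 1 tested gene (x axis, HAT1 KO minus HAT1 WT), grouped by list (y axis, number of genes tested in brackets). Black bars are list medians and red circles are genes at an adjusted p under 0.05 in edgeR, which are not marked for the 9 chosen genes. The median is -0.92 for the 9 Fc receptor and ITAM genes and -0.87 for the macrophage markers, beside 0.017 for the Src family kinases and -0.056 for the fibroblast markers.

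Several of these genes have a paralog that does a like job in most cell types, and the pairs are set side by side as values without a test. Plcg2 was at -0.44 (SE 0.10) on the log2 scale and Plcg1 at -0.04 (SE 0.07), so the ratio of Plcg2 to Plcg1 went from 0.666 ± 0.0582 in HAT1 WT to 0.506 ± 0.0747 in HAT1 KO without overlap. Vav1 was at -0.93 beside -0.27 (SE 0.29) for Vav2 and -0.82 (SE 0.16) for Vav3. The ratio of Vav1 to Vav2 overlapped because Vav2 was at 14.1 CPM in KO line 72 and at 28.2 to 32.6 CPM in the other KO lines, and the ratio of Vav1 to Vav3 also overlapped.

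Among pairs outside the 9 genes, Inpp5d was at -0.88 beside -0.09 for Inppl1, Ptpn6 at -0.67 beside 0.09 for Ptpn11, Rac2 at -0.39 beside 0.05 for Rac1 and Pik3cd at -0.60 beside -0.18 for Pik3ca. Of the Src family kinases, Lyn was at -0.55 beside 0.02 for Fyn. Fgr was the exception, at 0.46 with an SE of 0.86, since it ran from 0.822 to 6.64 CPM among WT lines, beside 0.01 for Yes1. Of the 50-base stretches, 21.5% of those of Lyn, 11.8% of those of Inppl1 and 10.8% of those of Yes1 occur in another gene.

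**Figure D3:**
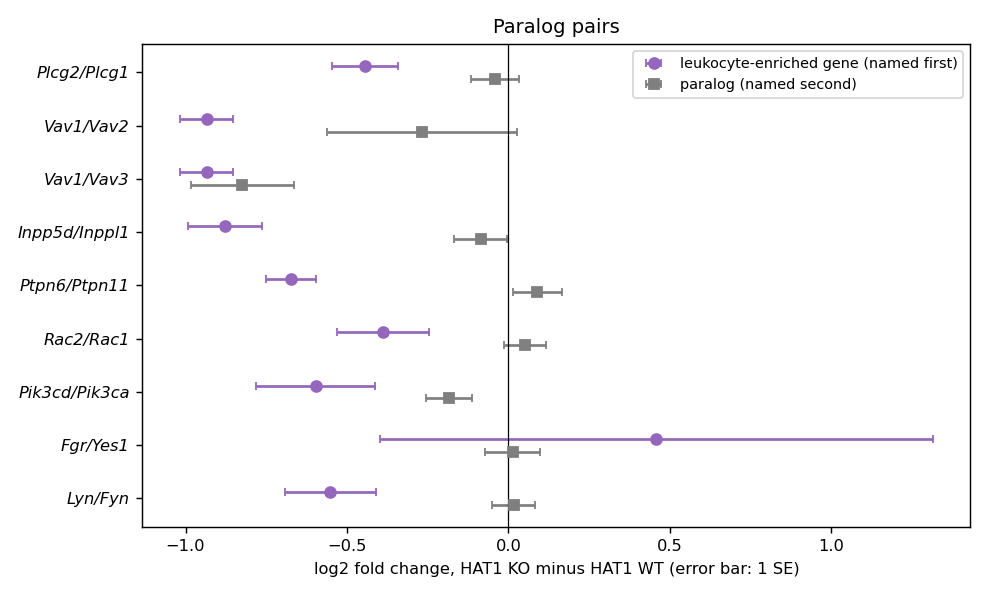
Points are log2 fold changes (x axis, HAT1 KO minus HAT1 WT) with error bars of 1 SE, for 9 pairs (y axis) of a leukocyte-enriched gene (purple, named first) and a paralog (grey, named second). The purple point is below the grey one in all pairs but Fgr and Yes1, and Vav1 at -0.93 and Vav3 at -0.82 are close together.

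Markers of other cell types were examined because the 9 genes are not characteristic of fibroblasts. The fibroblast markers were abundant in all lines, with a summed level of 61447 to 69348 CPM over 10 genes in HAT1 WT and 46991 to 78945 CPM in HAT1 KO, a median log2 fold change of -0.056 and 0 genes past the adjusted threshold in edgeR, 1 lower at an unadjusted p under 0.05 and 0 in DESeq2 or limma voom. The 13 macrophage markers were also present in every line, with a sum of 5585 to 6239 CPM in HAT1 WT and 2635 to 3418 CPM in HAT1 KO. All 13 were lower in HAT1 KO, with a median log2 fold change of -0.87. The adjusted threshold was passed by 6, beside 0.528% of all genes. In 12 all KO lines were below all WT lines, beside 12.4% of all genes. The marker Csf1r, the receptor for macrophage growth factors, was at -0.74 (SE 0.08), Ptprc, the pan-leukocyte gene, at -0.68 (SE 0.08) and Adgre1, the gene for F4/80, at -0.91 (SE 0.12), with edgeR adjusted p-values of 0.0353, 0.0357 and 0.0496. Of the 6 past the threshold, 4 remained without KO line 72 and 0 without any other line. With the lane in the model 0 remained, where the adjusted p was 0.529, while 6 remained in DESeq2 and in limma voom. The share of all genes called without 1 line or with the lane was not computed. In bulk RNA, fewer cells of a type and less RNA per cell cannot be told apart, and the part of macrophage content in the differences of the 9 genes was not tested.

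Markers of other blood cells were at or near 0, apart from those of platelets. The summed level was at most 0.943 CPM in any line for the 3 of 7 mast cell markers analysed, 0.311 CPM for neutrophils (1 of 5), 0.174 CPM for B cells (2 of 3), 0.503 CPM for T cells (1 of 3), 0.141 CPM for NK cells (1 of 2) and 0.174 CPM for erythroid cells (1 of 4), and the other markers of these lists were not analysed here. The platelet gene Pf4, which macrophages also express, was at 9.78 CPM in HAT1 WT and 3.12 CPM in HAT1 KO, a log2 fold change of -1.65 (SE 0.22, edgeR adjusted p = 0.0479, from 8.06e-09 to 0.529 over the alternatives, and past the threshold in none of the fits without 1 line). The 4 endothelial markers had sums of 11.2 to 12.5 CPM in HAT1 WT and 8.87 to 12.3 CPM in HAT1 KO, with a median log2 fold change of -0.51. In this list 0 genes passed the adjusted threshold in edgeR, DESeq2 or limma voom. Pecam1 (-1.63, SE 0.41) and Cdh5 (-0.85, SE 0.28) had an unadjusted p under 0.05 in edgeR, where 8.77% of all genes were lower. Both also had all KO lines below all WT lines, beside 12.4% of all genes. Both were low, with means of 0.592 and 0.603 CPM in HAT1 WT and 0.189 and 0.333 CPM in HAT1 KO. The groups overlapped for Kdr, at 9.48 and 8.48 CPM (-0.16, SE 0.18), and for Tek, at 1.09 and 1.16 CPM (0.08, SE 0.71). The 6 proliferation markers had a median log2 fold change of 0.73, with sums of 265 to 419 CPM in HAT1 WT and 387 to 611 CPM in HAT1 KO that overlapped. Of these, 0 passed the adjusted threshold in edgeR or limma voom and 1 in DESeq2. At an unadjusted p under 0.05 in edgeR, 4 were higher, beside 869 of all 14773 genes. In all KO lines 1 was higher, beside 9.59% of all genes. The part of either list in the result was not tested.

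Relative to the summed macrophage markers, which differed by -0.94 on the log2 scale, the 9 genes showed little common difference. The median log2 difference of their ratio to that sum was -0.0032, from -0.30 for Fcgr2b to 0.49 for Plcg2. Vav1 made up 0.915%, 0.866% and 0.982% of the sum in WT lines 36, 47 and 78 and 0.931%, 0.861% and 0.965% in KO lines 33, 41 and 72. No gene had a ratio lower in all KO lines, 5 overlapped, and 4 (Tyrobp, Fcer1g, Syk and Plcg2) had a higher ratio in every KO line. The sum was lower in every KO line, so a gene with equal CPM in all lines would also have a higher ratio there. The share of all genes with such a ratio was not computed, and nothing is read from these counts. Plcg2 went from 0.966%, 0.885% and 0.853% of the sum in the WT lines to 1.23%, 1.03% and 1.60% in the KO lines. Lyz2 alone made up 45.7% to 51.3% of the sum, and without it the median was -0.08 and Plcg2 was the only gene whose ratio was higher in every KO line.

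**Figure D4:**
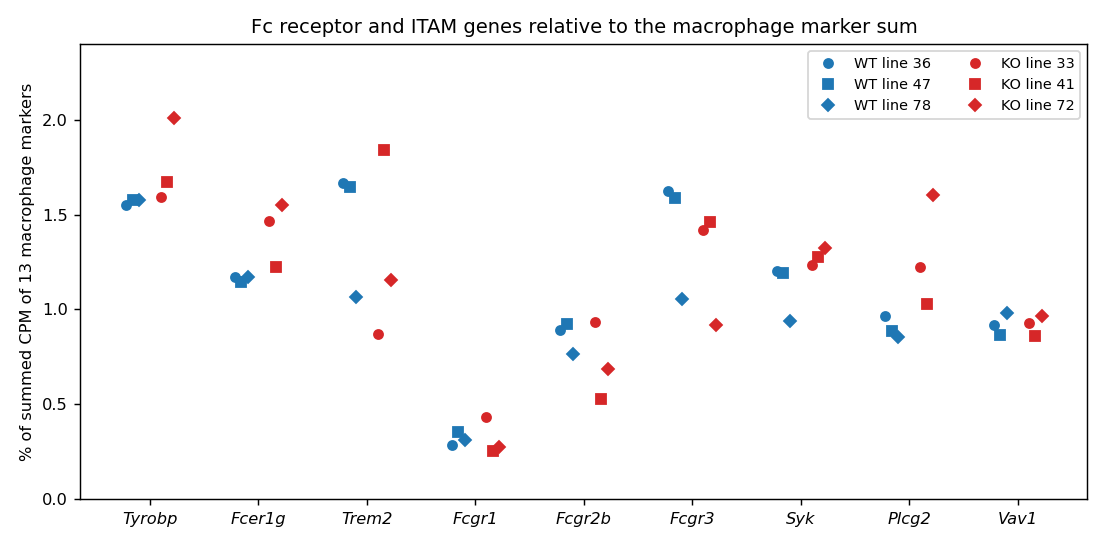
Each point is the level of 1 gene in 1 line as a percentage of the summed CPM of 13 macrophage markers in that line (y axis, linear), with HAT1 WT in blue and HAT1 KO in red. Marker shapes do not pair lines. Vav1 lies between 0.861% and 0.982% in all 6 lines, while Plcg2 lies higher in every KO line.

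Across all 6 lines, the genes outside the 9 whose log2 CPM followed the mean of the 9 most closely were Smagp (Pearson r 0.996), Cd22 (0.994), Themis2 (0.994), Gm13848 (0.993) and Irf8 (0.993), over 6 samples that include the difference between the genotypes. Themis2, an adaptor of myeloid and B cells, was at 22.3 ± 2.24 CPM in HAT1 WT and 14.5 ± 1.53 CPM in HAT1 KO. Irf8, a transcription factor of macrophage development, was at 35.0 ± 4.25 and 18.8 ± 3.16 CPM. Of 14612 genes compared, 217 had an r above 0.95, so a close likeness to this pattern was shared by many genes.

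The differences were also read within the lines that shared a lane or a sex-linked pattern. In lane 6 all 9 genes were lower in KO lines 33 and 72 than in WT line 47, with log2 differences from -1.81 (Trem2) to -0.43 (Plcg2). In lane 7, with 1 line of each genotype, 8 of the 9 were lower in KO line 41 than in WT line 78, from -1.25 for Fcgr2b to -0.24 for Fcgr3, and Trem2 was higher by 0.08. WT line 78, which shared low Y-linked and high Xist counts with the KO lines, was above every KO line for 8 of the 9 genes. With WT lines 36 and 47 left out the median log2 fold change was -0.57 in place of -0.92, with Fcgr3 at -0.55, Trem2 at -0.54 and Syk at -0.39, while Vav1 stayed at -0.94. In that comparison HAT1 WT is a single line. The shares of all genes lower within a lane or below WT line 78 were not computed. The 9 genes were chosen on the contrast of the genotypes, so nothing is read from these counts.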

How the data were processed

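Raw read counts per gene of 6 RNA-seq libraries (TruSeq RNA v2 kit) were taken from 1 deposited table and grouped by the genotype in the labels, with 0 columns left without a sample. The authors deposited whole-number counts, and the submitters' processing notes name mm10 and edgeR. The aligner, counter and strand setting are not given in the sources used here. The same deposited table held the authors' own comparison (log2 fold change and log2 mean CPM, the F score, p-values and q-values), which was not used. Counts of 1 to 10 were even in 75.1% of cases, beside 55% for counts of 101 to 1000, so low counts are coarse and a fit on halved counts was added. All 17512 gene IDs matched GENCODE M21 (GRCm38), and 24 symbols that a spreadsheet had turned into dates were restored.

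Genes were filtered with filterByExpr (14773 kept) and tested with the quasi-likelihood test of edgeR 4.0.16 with TMM scaling, in R 4.3.3, on genotype alone, with Benjamini-Hochberg adjustment over all genes tested. The code was tested on simulated data with less spread between libraries than the common dispersion of 0.0747 found here. That test concerned the code and does not give the power in these libraries. The fold threshold of 1.5 with an unadjusted p under 0.05 follows the study. Alternatives with other tests were the DESeq2 1.42.0 Wald test and limma 3.58.1 (voom with sample quality weights). Alternatives within edgeR were RLE scaling (the size-factor method of DESeq2, computed in edgeR), library-size scaling, and no filter or a mean of at least 50 counts. Further edgeR fits left each line out, had the lane in the model, or left out WT lines 36 and 47. Total counts of 67720628 to 98786746 per library set the depth, and n = 3 lines per genotype limits the precision more than counting does. RPKM used exon lengths of protein-coding transcripts. Shared sequence was measured as 50-base stretches found in transcripts of another gene, on either strand.

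The 9 genes and all lists were chosen with earlier results of these data known. Genes named are the 9, Hat1, pathway genes with an adjusted p under 0.05, up to 4 per list in order of p with an unadjusted p under 0.05, at least 1.5-fold and no overlap, the paralog pairs, 4 macrophage markers and the 5 genes most alike. Pf4, Lyz2, Ms4a2, Cd79a, Cd247, Pecam1, Cdh5, Kdr, Tek, Trem1 and Clec5a were named after their values were seen. The motifs and the 50-base comparison were also chosen at that stage. Among the paralog pairs, 1 is not reported here.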

Additional observations from a re-analysis of the deposited data

How the results depend on the processing

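All 9 genes stayed lower in HAT1 KO in all 135 values from the alternatives, and 5 of these values moved by 1 SD or more, all with WT lines 36 and 47 left out, where the median log2 fold change was -0.57 in place of -0.92. The count of the 9 lower at an adjusted p under 0.05 was 3, and it was 9 in the DESeq2 Wald test, 6 with limma voom, 0 with the lane in the model and 0 to 2 without 1 line. The count of other pathway genes lower at an adjusted p was 3, and it was 29 in the DESeq2 Wald test and 14 with limma voom. In edgeR it was 1 with RLE scaling, 1 without a filter, 0 with the lane in the model and 0 to 2 without 1 line. Those higher at 1.5-fold numbered 0, and 0 to 1 without 1 line. Hat1 kept its direction but missed the adjusted threshold with the lane in the model (-1.10) and without 1 line (-1.08 to -0.87). For these changes the cause was not tested. The share of all genes called was not computed for the alternatives within edgeR. The sum without Lyz2, added after seeing the data, gave a median ratio difference of -0.08 in place of -0.0032. No paired analysis was possible because the genotypes share no line numbers. With 3 lines per genotype, sex-linked pattern and lane cannot be fully told apart from genotype.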
